A study of Homo sapiens with 12 samples.

Results

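PPIF, which encodes cyclophilin D of the mitochondrial matrix, was examined together with 5 genes of the channels and carriers that exchange metabolites across the mitochondrial membranes: VDAC1, VDAC2 and VDAC3 of the outer membrane and the ADP/ATP carrier genes SLC25A4 and SLC25A5 of the inner membrane. PPIF was taken because its RNA was higher with EphB2-Fc, so its values in both comparisons of EphB2-Fc are given as a description without a test, and the 5 others were taken as the family that is discussed with it. All 6 genes had rows in the tables, which named 36315 genes, and all 6 were among the 21601 genes that reached 10 counts in all libraries together and were tested. The tissue culture model was HMC3, an immortalized human cell line used as a stand-in for microglia, and RNA was depleted of rRNA before sequencing. Cells of the EphB2 + ephrin-B1 siRNA group received ephrin-B1 siRNA with the transfection reagent RNAiMAX for 48 h and then EphB2-Fc, the ectodomain of the receptor EphB2 fused to an antibody Fc part, at 2 ug/mL for 24 h. Cells of the EphB2 group received negative control siRNA and then EphB2-Fc, those of the ephrin-B1 siRNA group ephrin-B1 siRNA and then Ctrl-Fc, and those of the Ctrl group negative control siRNA and then Ctrl-Fc, with 3 libraries in each of the 4 groups. Both Fc proteins had been pre-clustered for 1 h on ice with goat anti-human IgG, so every group carried an siRNA, the transfection reagent, an Fc protein and the clustering antibody.

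The permeability transition pore is an opening of the inner mitochondrial membrane that calcium and oxidative stress can trigger, and cyclophilin D, a peptidyl-prolyl isomerase of the matrix, is its best known regulator and the mitochondrial target of cyclosporin A. VDACs are beta-barrel channels that let ATP, ADP and other small solutes cross the outer membrane, and the ADP/ATP carriers exchange ADP for ATP across the inner membrane. VDACs and ADP/ATP carriers were long regarded as the pore itself, a role that remains debated, and in immune cells mitochondrial permeability is studied for the mitochondrial DNA and RNA that can leave the organelle.

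The libraries held between 13230689 and 25785591 estimated counts. Levels are given as CPM, the counts of a gene scaled to one common library total, after TMM normalization, errors as the SD between 3 libraries or as the fitted SE, and tests as edgeR's quasi-likelihood test with Benjamini-Hochberg adjustment over all 21601 genes and a threshold of 0.05. EFNB1, the siRNA target that encodes ephrin-B1, had 6.56, 6.03 and 6.38 CPM with EphB2-Fc and ephrin-B1 siRNA against 15.6, 18.8 and 18.4 CPM with EphB2-Fc alone, and 7.10, 6.60 and 8.70 CPM with ephrin-B1 siRNA against 17.5 to 20.5 CPM in Ctrl, so the siRNA labels held in every library. The log2 fold change of EFNB1 was -1.47 (adjusted p = 0.00189) with EphB2-Fc and -1.35 (adjusted p = 0.00124) without it. Of 10 microglial markers, AIF1, CX3CR1, P2RY12 and SPI1 had 2 to 15 counts over all 12 libraries together, CSF1R had 467 and CD68, which other cells also express, 6594. Of 9 mesenchymal and pericyte markers, COL1A1 and THY1 had medians of 1281 and 339 TPM after rescaling without an rRNA pseudogene transcript, RGS5 had 7.60 TPM and COL3A1 had 14 counts.

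PPIF (ENSG00000108179.14) lies on chromosome 10 of GRCh38 (79347469 to 79355334, plus strand) and is protein-coding. The transcript PPIF-201, which spans the whole gene, held 86.0 to 91.3% of the PPIF counts of a library, and the shorter PPIF-205 and PPIF-202 held most of the rest. Of the 2694 different 31-base stretches in the PPIF transcripts, 5 (0.19%) also occurred in transcripts of another gene, so few of its reads could have been shared. The window from 250 bases before to 50 bases after the start of PPIF (chr10:79347219-79347518, GRCh38.p14, plus strand, from RefSeq) is shown because PPIF is the gene of the 6 that separated by Fc protein. The window is printed 5′ to 3′ in lower case, with the matches to an NF-kB core motif in capitals.
PPIF promoter window: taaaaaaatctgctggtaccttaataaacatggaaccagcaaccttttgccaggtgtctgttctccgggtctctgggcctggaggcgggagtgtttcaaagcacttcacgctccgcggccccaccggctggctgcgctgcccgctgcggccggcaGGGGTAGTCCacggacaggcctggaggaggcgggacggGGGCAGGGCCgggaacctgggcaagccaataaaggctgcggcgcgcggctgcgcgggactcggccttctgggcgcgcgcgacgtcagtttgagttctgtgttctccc
The 2 matches to the NF-kB core motif, both on the plus strand, began 95 and 57 bases before the gene start, and the core motif of an interferon response element had no match on either strand. A match to the NF-kB core on either strand was present in 58.7% of the 35116 promoter windows of the same length, and one to the interferon core in 3.6%, so the NF-kB core matches are common in windows of this kind. The table had 4 windows for VDAC1, 2 for VDAC2 and 1 each for SLC25A4 and SLC25A5, and each of these held at least 1 match to the NF-kB core and none to the interferon core.

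PPIF was higher in every library with EphB2-Fc than in every library without it, whether or not ephrin-B1 was knocked down. With EphB2-Fc and ephrin-B1 siRNA, PPIF had 223.5, 195.2 and 198.3 CPM, against 135.8, 127.1 and 122.3 CPM with ephrin-B1 siRNA alone. The means were 205.6 ± 15.5 CPM and 128.4 ± 6.86 CPM (SD, n = 3 each), a 1.60-fold difference. On the log2 scale this was 0.68 (SE 0.070), and PPIF was higher in 3 of 3 same-numbered pairs, by 0.72, 0.62 and 0.70. Of all genes, 19.9% were higher in 3 of 3 pairs and 7.26% were higher without overlap in this comparison. For the separation across both siRNAs together, no share of all genes was counted. All 27 alternatives gave a positive value, but they reuse the libraries in which the rise was seen, so this is no separate support. In this comparison 0.116% of all genes tested passed the threshold and 0.0833% did so as higher, and nothing is read from the place of PPIF among them, since the gene was chosen for its rise with EphB2-Fc.

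**Figure D1:**
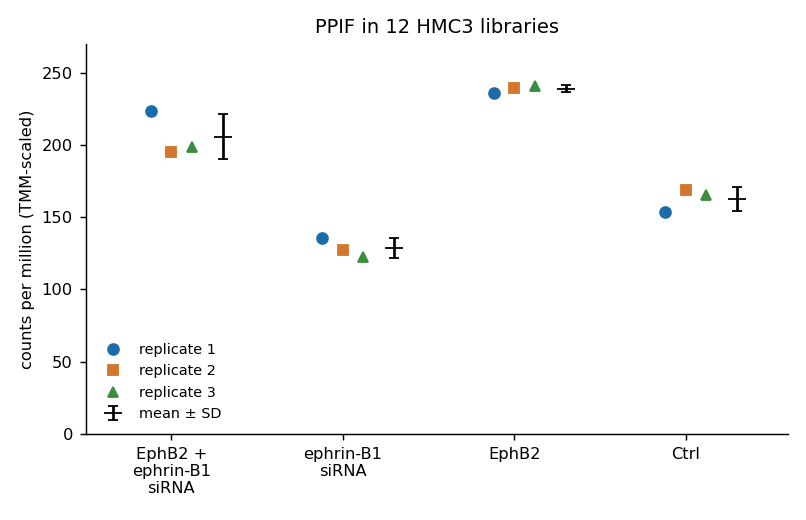
PPIF level in CPM (TMM-scaled, axis from 0) in the 12 HMC3 libraries, by group, with symbols for the replicate number and bars for the mean ± SD of 3 libraries. The 6 libraries with EphB2-Fc lie between 195.2 and 240.9 CPM, above the 6 libraries with Ctrl-Fc, which lie between 122.3 and 168.8 CPM.

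In EphB2 vs Ctrl the values were of like size. With negative control siRNA, PPIF had 236.2, 239.2 and 240.9 CPM in EphB2 libraries, against 153.5, 168.8 and 165.4 CPM in Ctrl libraries. The EphB2 libraries were close together, with a mean of 238.8 ± 2.43 CPM, and the Ctrl mean was 162.6 ± 8.07 CPM (SD, n = 3 each), a log2 fold change of 0.55 (SE 0.070). In EphB2 vs Ctrl 0.037% of all genes tested passed the threshold, and the EphB2 libraries lay above all Ctrl libraries for 6.62%. The difference made by EphB2-Fc was larger with ephrin-B1 siRNA than with negative control siRNA by 0.13 on the log2 scale (SE 0.099), an estimate that is likewise given without a test. Over 26 alternatives this estimate lay between -0.18 and 0.18, and 1 of them was negative.

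The knockdown went with less PPIF. In libraries with ephrin-B1 siRNA alone PPIF was at 128.4 ± 6.86 CPM, against 162.6 ± 8.07 CPM in Ctrl, and its 3 values, 122.3 to 135.8 CPM, lay below the Ctrl range of 153.5 to 168.8 CPM, as for 8.89% of all genes. PPIF fell by 0.34 on the log2 scale (SE 0.070, adjusted p = 0.0336), in a comparison in which 1.81% of all genes tested passed and 1.15% did so as lower. This comparison uses Ctrl libraries, which also entered the choice of the gene, and ephrin-B1 siRNA libraries, which may have entered it. The adjusted p is therefore not independent of that choice. The 3 same-numbered pairs gave -0.18, -0.41 and -0.44, and the call was lost in 17 of 27 alternatives, among them those that left out ephrin-B1 siRNA replicate 1, 2 or 3, Ctrl replicate 2 or 3, EphB2 replicate 3 or EphB2 + ephrin-B1 siRNA replicate 3, while all 27 values were negative. With an offset for transcript length the difference was -0.25 (adjusted p = 0.339).

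Under EphB2-Fc, the libraries with ephrin-B1 siRNA (195.2 to 223.5 CPM) also lay below those with negative control siRNA (236.2 to 240.9 CPM). The log2 fold change was -0.22 (SE 0.070, 95% CI -0.37 to -0.062, adjusted p = 0.247), which did not pass, and it passed when the replicate number was a block (adjusted p = 0.0261), as 9.93% of all genes tested did in that fit against 0.616% without the block. This comparison uses EphB2 libraries, which also entered the choice of PPIF, and libraries with both treatments, which may have entered it. The adjusted p values are therefore not independent of that choice. For 7.65% of all genes the libraries with ephrin-B1 siRNA lay below the others without overlap. PPIF with EphB2-Fc and ephrin-B1 siRNA was above Ctrl in each library, 195.2 CPM being the lowest of the 3 and 168.8 CPM the highest Ctrl value.

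The ratio of PPIF to the 5 other genes within a library needs no normalization between libraries. PPIF had 29.7, 23.5 and 25.7 counts per 100 counts of the 5 others with EphB2-Fc and ephrin-B1 siRNA, against 18.8, 15.2 and 15.7 with ephrin-B1 siRNA alone. In EphB2 libraries the ratio was 30.9, 24.0 and 27.3 and in Ctrl libraries 18.8, 17.7 and 18.8. The groups with EphB2-Fc did not overlap with those without it on this scale, for which no share of all genes was counted. The ratio and the transcript and TPM values below reuse the PPIF counts in which the rise was seen. They are therefore no separate support for it.

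PPIF-201 on its own, the transcript of full length, had 200, 174 and 177 CPM with EphB2-Fc and ephrin-B1 siRNA, against 120, 113 and 105 CPM with ephrin-B1 siRNA alone. It had 216, 211 and 212 CPM in EphB2 libraries and 137, 152 and 147 CPM in Ctrl libraries. Its share of the PPIF counts stayed between 86.0 and 91.3% in all groups, and the difference between EphB2-Fc with siRNA and siRNA alone, fitted on the most abundant transcript of each gene, was 0.70 on the log2 scale.

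Levels between genes were compared per transcript length. A short transcript of RNA5-8SP6, a 5.8S rRNA pseudogene, held 31.9 to 39.3% of the TPM of the libraries with EphB2-Fc and ephrin-B1 siRNA, 29.1 to 40.6% in EphB2 libraries, 10.6 to 30.6% with ephrin-B1 siRNA alone and 23.0 to 35.2% in Ctrl libraries, although it held 0.169 to 0.916% of the counts. As deposited, PPIF was at 172.5, 135.2 and 163.0 TPM with EphB2-Fc and ephrin-B1 siRNA, against 154.9, 99.0 and 122.8 TPM with ephrin-B1 siRNA alone, and the 2 groups overlapped. Rescaled to the same total without that transcript, PPIF was at 284.1, 219.4 and 239.3 TPM against 173.2, 142.6 and 154.7 TPM, and they did not overlap. With limma on log2(TPM + 1), the difference was 0.34 (SE 0.16) as deposited and 0.65 (SE 0.095) when rescaled.

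**Figure D2:**
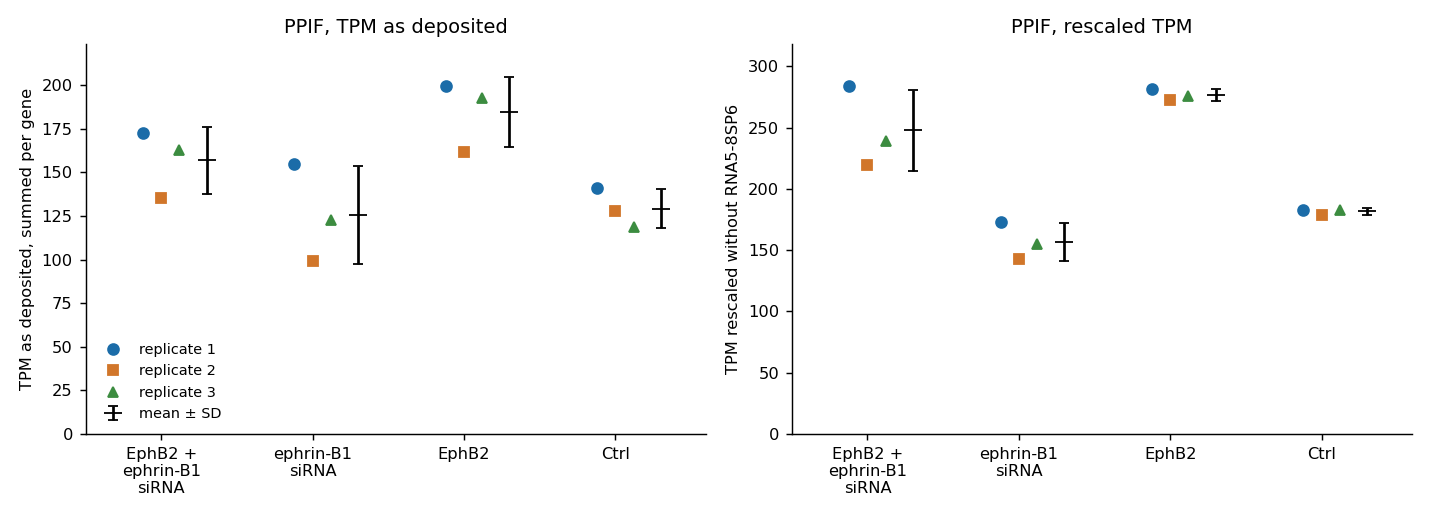
PPIF in TPM as deposited (left) and rescaled without the RNA5-8SP6 transcript (right), summed per gene, for the 12 libraries by group, with axes from 0, symbols for the replicate number and bars for the mean ± SD of 3 libraries. As deposited, the groups with EphB2-Fc and ephrin-B1 siRNA (135.2 to 172.5 TPM) and ephrin-B1 siRNA alone (99.0 to 154.9 TPM) overlap, and after rescaling (219.4 to 284.1 TPM and 142.6 to 173.2 TPM) they do not.

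On the rescaled TPM basis SLC25A5 was the most abundant of the 6 genes, with a mean of 483 TPM over the 12 libraries (443.5 to 553.5). VDAC1 followed with 278 TPM (244.9 to 322.0), VDAC2 with 235 TPM (200.6 to 290.3), PPIF with 216 TPM (142.6 to 284.1), VDAC3 with 98.1 TPM (85.7 to 108.4) and SLC25A4 with 21.0 TPM (16.8 to 28.0). VDAC1 exceeded VDAC2 in 11 of 12 libraries, and VDAC2 exceeded PPIF in 8 of 12, so PPIF and VDAC2 did not keep one order. SLC25A6, another ADP/ATP carrier gene outside the 6, stood between SLC25A5 and VDAC1 with 351 TPM (278.0 to 452.0), below SLC25A5 in 12 of 12 libraries and above VDAC1 in 10. SLC25A5 is the broadly expressed carrier and SLC25A4 the one known from heart and skeletal muscle.

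**Figure D3:**
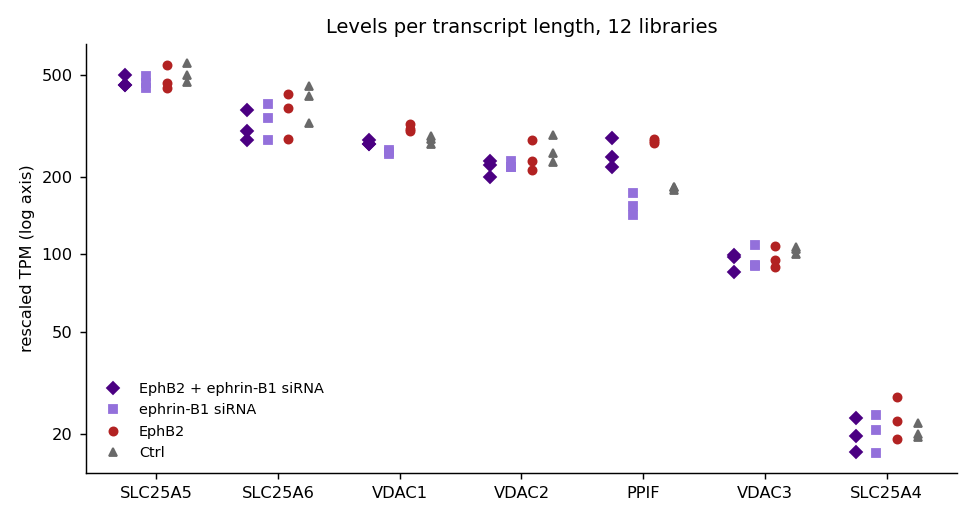
Rescaled TPM (log axis) of the 6 genes and of SLC25A6 in the 12 libraries, ordered by mean level, with a symbol and colour for each group. SLC25A5 lies highest (443.5 to 553.5 TPM) and SLC25A4 lowest (16.8 to 28.0 TPM), and PPIF lies at 219.4 to 284.1 TPM with EphB2-Fc and at 142.6 to 183.0 TPM without it.

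The 5 other genes lie apart from PPIF in GRCh38: VDAC1 on chromosome 5 (133971871 to 134004975, minus strand), VDAC2 on chromosome 10 (75210154 to 75231448), VDAC3 on chromosome 8 (42391624 to 42405937), SLC25A4 on chromosome 4 (185143266 to 185150382) and SLC25A5 on chromosome X (119468422 to 119471396), the last 4 on the plus strand. None of them passed the threshold in either comparison of EphB2-Fc, also with the block, where 6.93% of all genes passed with ephrin-B1 siRNA and 5.34% with negative control siRNA. VDAC1, the most abundant of the 3 channels in these cells, had 255.0, 261.7 and 254.2 CPM with EphB2-Fc and ephrin-B1 siRNA, against 228.3, 249.7 and 237.0 CPM with ephrin-B1 siRNA alone. The first group lay above the second without overlap, as for 7.26% of all genes, but the log2 fold change of 0.11 (95% CI -0.045 to 0.26, adjusted p = 0.767) did not pass. In EphB2 libraries VDAC1 had 275.2, 326.9 and 307.6 CPM and in Ctrl libraries 273.9, 285.8 and 272.0 CPM, which overlapped (log2 fold change 0.13, 95% CI -0.025 to 0.28, adjusted p = 0.735). In both comparisons the same-numbered pairs were higher in 3 of 3, as for 19.9% of all genes with the siRNA and 18.5% without it. With the block the 95% CIs of VDAC1 lay above 0. They were 0.014 to 0.21 with the siRNA (adjusted p = 0.177) and 0.031 to 0.22 without it (adjusted p = 0.129).

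VDAC2, which is known for holding BAK in check at the outer membrane, had 129.8, 147.6 and 129.9 CPM with EphB2-Fc and ephrin-B1 siRNA, against 132.0, 151.2 and 143.5 CPM with ephrin-B1 siRNA alone (log2 fold change -0.067, 95% CI -0.34 to 0.21). It had 130.5, 187.7 and 155.9 CPM in EphB2 libraries, against 147.3, 185.5 and 165.3 CPM in Ctrl libraries (log2 fold change -0.072, 95% CI -0.35 to 0.21). The groups overlapped in both comparisons, and the spread between replicates exceeded the differences. VDAC3, the least abundant channel, had 54.9, 66.2 and 66.2 CPM with EphB2-Fc and ephrin-B1 siRNA, against 58.5, 75.5 and 62.9 CPM with ephrin-B1 siRNA alone, and 57.1, 74.2 and 67.0 CPM in EphB2 libraries, against 67.4, 74.3 and 74.7 CPM in Ctrl libraries. It overlapped in both comparisons, with log2 fold changes of -0.074 (95% CI -0.34 to 0.19) with the siRNA and -0.13 (95% CI -0.39 to 0.14) without it. With the block the VDAC3 interval without the siRNA lay below 0, at -0.25 to -0.0069, and its adjusted p of 0.242 did not pass.

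SLC25A4 was the carrier with the fewest counts, 320.7 to 714.3 in a library. It had 28.0, 23.1 and 25.0 CPM with EphB2-Fc and ephrin-B1 siRNA, against 27.0, 23.3 and 26.1 CPM with ephrin-B1 siRNA alone, a log2 fold change of -0.0017 (95% CI -0.20 to 0.20). In EphB2 libraries it had 30.8, 27.8 and 29.6 CPM, above the 26.1, 26.4 and 26.8 CPM of Ctrl libraries, as for 6.62% of all genes. The log2 fold change of 0.15 (95% CI -0.046 to 0.35, adjusted p = 0.771) did not pass. With the block this interval lay above 0, at 0.0037 to 0.29, and the adjusted p of 0.259 did not pass. Between 45.6 and 61.7% of SLC25A4 counts fell on SLC25A4-202, a transcript annotated for nonsense-mediated decay, and the protein-coding SLC25A4-201 held 10.7 to 15.1 CPM in all 12 libraries.

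SLC25A5 had 285.1, 331.1 and 297.0 CPM with EphB2-Fc and ephrin-B1 siRNA, against 276.7, 336.7 and 308.4 CPM with ephrin-B1 siRNA alone, a log2 fold change of -0.014 (95% CI -0.29 to 0.27). It had 271.3, 380.7 and 321.5 CPM in EphB2 libraries, against 303.5, 380.7 and 343.1 CPM in Ctrl libraries, a log2 fold change of -0.078 (95% CI -0.36 to 0.20). With ephrin-B1 siRNA in both groups, the intervals of the 5 other genes ended at 0.27 or lower, and the median log2 fold change of the 6 genes was -0.0076 beside 0.00064 over all genes tested. In the interaction none of the 5 genes passed (adjusted p = 1 for each), nor did any of the 21601 genes by edgeR without a block, where 498 (2.31%) had an unadjusted p under 0.05, while 1 gene passed with the block and 2 by DESeq2.

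**Figure D4:**
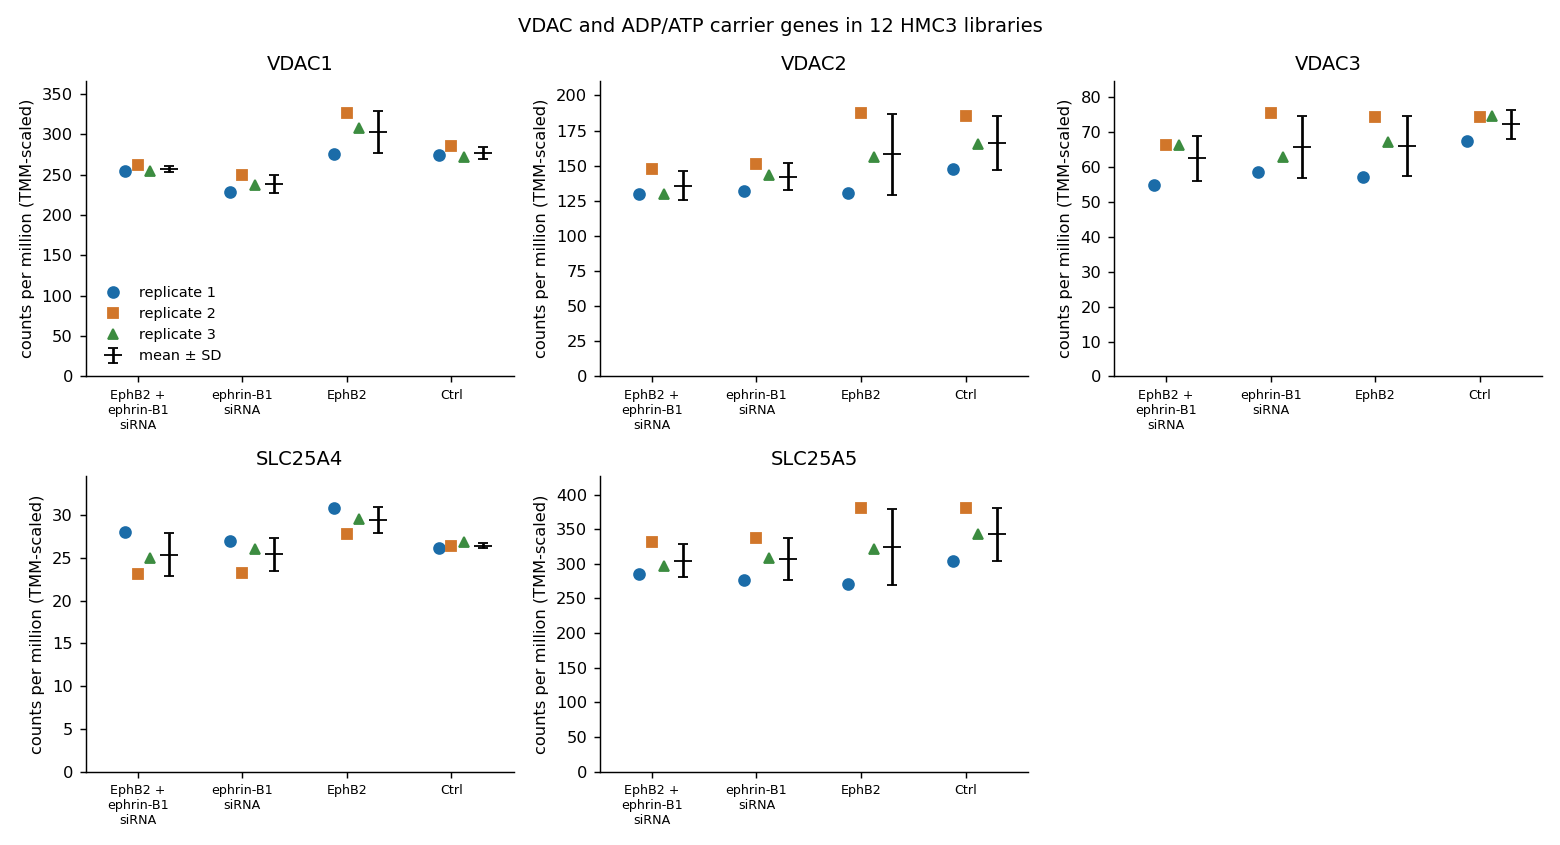
VDAC1, VDAC2, VDAC3, SLC25A4 and SLC25A5 in CPM (TMM-scaled, axes from 0) in the 12 libraries by group, with symbols for the replicate number and bars for the mean ± SD of 3 libraries. Replicate 1 lies below replicate 2 in all 4 groups for VDAC1, VDAC2, VDAC3 and SLC25A5, and the groups with and without EphB2-Fc lie close together for each gene.

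Several of these genes differed more between replicate numbers than between Fc proteins. Replicate 1 was below replicate 2 in 4 of 4 groups for VDAC1, VDAC2, VDAC3 and SLC25A5, with log2 ratios of -0.52 to -0.19 for VDAC2 and -0.49 to -0.22 for SLC25A5. SLC25A6 had the same order with ratios of -0.78 to -0.49. PPIF did not share it, with ratios between -0.14 and 0.20 that were negative in 2 of 4 groups. Neither did SLC25A4, with ratios between -0.013 and 0.28 that were negative in 1 of 4 groups. The share of all genes with this order was not counted.

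With ephrin-B1 siRNA the log2 fold changes of all 6 genes were negative, both against Ctrl and under EphB2-Fc. Not all signs held over the 27 alternatives. Against Ctrl, SLC25A4 was positive in 3 (up to 0.13) and VDAC3 and SLC25A5 in 1 each. Under EphB2-Fc, VDAC3 was positive in 2 and SLC25A5 in 1. The median, PPIF included, was -0.19 without EphB2-Fc and -0.21 with it, beside -0.0032 and -0.017 over all genes tested. Of these differences that of PPIF against Ctrl was the one that passed in the fit without a block. It rests on libraries that entered or may have entered the choice of PPIF. VDAC1 had 228.3 to 249.7 CPM with ephrin-B1 siRNA alone, below the 272.0 to 285.8 CPM of Ctrl, and 254.2 to 261.7 CPM with EphB2-Fc and ephrin-B1 siRNA, below the 275.2 to 326.9 CPM of EphB2. Of all genes, 8.89% lay lower without overlap against Ctrl and 7.65% under EphB2-Fc. The log2 fold changes of VDAC1 were -0.22 (SE 0.070, adjusted p = 0.185) and -0.24 (SE 0.070, adjusted p = 0.193). Both passed once the replicate number entered as a block (adjusted p = 0.00465 and 0.00426).

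With the block, VDAC2 was also lower with ephrin-B1 siRNA, by -0.22 against Ctrl (adjusted p = 0.0209) and -0.21 under EphB2-Fc (adjusted p = 0.0379), although the libraries of the groups overlapped in both comparisons. SLC25A5 was lower against Ctrl, at -0.15 (adjusted p = 0.0474), and not under EphB2-Fc (adjusted p = 0.362). VDAC3 and SLC25A4 passed in neither. In all, 4 of the 6 genes passed as lower against Ctrl and 3 of 6 under EphB2-Fc, in fits in which 7.06% and 5.40% of all genes passed as lower. PPIF was among them in both, and its calls rest on libraries that entered or may have entered its choice. The others were VDAC1, VDAC2 and SLC25A5 against Ctrl and VDAC1 and VDAC2 under EphB2-Fc. Adding the offset for transcript length to the block ended the calls of VDAC1 (adjusted p = 0.0569 and 0.061) and VDAC2 (adjusted p = 0.129 and 0.361). The calls of SLC25A5 against Ctrl and of PPIF under EphB2-Fc were also lost with it.

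**Figure D5:**
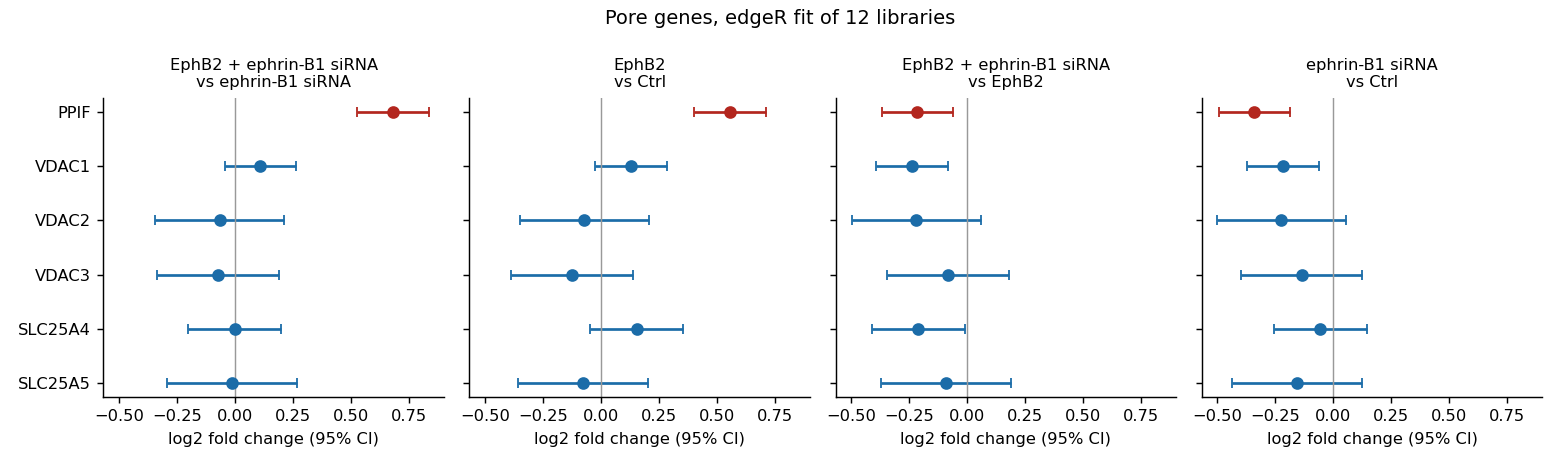
Log2 fold change with its 95% confidence interval from the edgeR fit of 12 libraries without a block, for the 6 genes (PPIF in red) in 4 comparisons. PPIF lies at 0.68 and 0.55 in the comparisons of EphB2-Fc, and its intervals there are no test, since it was chosen for this rise. The intervals of the 5 other genes include 0 in these comparisons. In the fit with the block, not drawn, those of VDAC1 in both and of VDAC3 and SLC25A4 in EphB2 vs Ctrl did not. All 6 estimates lie below 0 in the comparisons of ephrin-B1 siRNA.

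The microglial markers, summed, lay higher in the libraries with EphB2-Fc than in those without it. The summed rescaled TPM of the 10 microglial markers was 43.8 to 53.3 with EphB2-Fc and ephrin-B1 siRNA, against 37.5 to 40.3 with ephrin-B1 siRNA alone, and 45.2 to 60.1 in EphB2 libraries, against 36.1 to 37.3 in Ctrl libraries. Most of the sum was CD68 (median 34.7 TPM), which other cells also express. Of the 8 microglial markers with enough counts, 5 were above 0 and 3 below in each comparison of EphB2-Fc. None of the 8 microglial and 9 mesenchymal markers with enough counts passed without the block in either comparison of EphB2-Fc. With the block CD68 was higher with EphB2-Fc, by 0.33 with ephrin-B1 siRNA (adjusted p = 0.0185) and 0.58 with negative control siRNA (adjusted p = 0.00077), and PDGFRB, COL1A1 and COL1A2 were lower in both. COL1A1, for example, was at -0.26 with the siRNA (adjusted p = 0.00395) and -0.34 without it (adjusted p = 0.000674). ACTA2 was also lower with the siRNA, and TAGLN was higher without it. The sum of 9 mesenchymal and pericyte markers was 1673 to 1995 against 1912 to 2203 with the siRNA, and 1770 to 2102 in EphB2 against 2072 to 2337 in Ctrl, which overlapped. Their part in the PPIF values was not tested, and in bulk RNA a change in the cells present cannot be told from a change in RNA per cell.

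Copies limit how firmly the other genes can be read. Processed copies held 20.3% of the 31-base stretches of VDAC1 (13 copies), 26.5% of VDAC2 (5 copies) and 20.6% of SLC25A5 (9 copies), so reads there could be assigned to either. Counts listed on the copies were 1.02 to 1.68% of those of VDAC1, at most 0.58% of those of VDAC2 and at most 0.04% of those of SLC25A5.

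Lists of mitochondrial genes around the pore are read against the shares of all genes past the threshold, which were 0.037% in EphB2 vs Ctrl, 0.116% for EphB2-Fc with siRNA over siRNA alone, 1.81% for the siRNA against Ctrl and 0.616% for the siRNA under EphB2-Fc. With the block these shares were 5.34, 6.93, 13.6 and 9.93% in the same order. None of the 16 other cyclophilin genes passed in any comparison, and their median log2 fold change was 0.0085 between EphB2-Fc with siRNA and siRNA alone. PPIL3, a nuclear cyclophilin linked to the spliceosome, had 15.8, 16.7 and 16.2 CPM with EphB2-Fc and ephrin-B1 siRNA against 19.5, 19.2 and 21.0 CPM with the siRNA alone (log2 fold change -0.30, adjusted p = 0.428), and passed with the block (adjusted p = 0.0492), the 1 of the 16 to do so, as also in EphB2 vs Ctrl (-0.42, adjusted p = 0.00939). With the block 5 of 16 passed for the siRNA against Ctrl, 3 as higher and 2 as lower, and 4 under EphB2-Fc, 2 each way. PPIL1 had a log2 fold change of 0.11 (adjusted p = 0.711).

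Of 12 pore-linked genes, 11 had enough counts and none passed in any comparison, with 6 above 0, 5 below and a median of 0.069 for EphB2-Fc with siRNA over siRNA alone. The smallest p were those of HK2, a hexokinase that binds VDAC, with a log2 fold change of 0.36 (adjusted p = 0.324), and of C1QBP, a matrix protein, with 0.21 (adjusted p = 0.334). Both passed with the block (adjusted p = 0.00243 and 0.0191). In EphB2 vs Ctrl 2 of the 11 passed with the block, HK2 as higher (0.37, adjusted p = 0.00212) and SLC25A3, the phosphate carrier, as lower (-0.25, adjusted p = 0.0368). HK2 was also lower in the blocked fit with ephrin-B1 siRNA, at -0.35 against Ctrl (adjusted p = 0.00133) and -0.36 under EphB2-Fc (adjusted p = 0.0016). In that fit SLC25A6 was lower with the siRNA in both comparisons, CKMT1A, a mitochondrial creatine kinase, was higher against Ctrl, and SPG7, a protease subunit of the inner membrane, was higher under EphB2-Fc. CKMT1B had a like value against Ctrl in it, 0.74 (adjusted p = 0.051) beside 0.64 for CKMT1A (adjusted p = 0.029). Sharing of reads between CKMT1A and CKMT1B was not examined.

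Of 18 nuclear genes for ATP synthase subunits or its inhibitory factor, 2 fell with ephrin-B1 siRNA against Ctrl, 1 of them also under EphB2-Fc. None passed with EphB2-Fc in the fit without a block. With the block 5 passed as lower against Ctrl and 3 under EphB2-Fc, and ATP5MC2, a gene for the c subunit of the membrane ring, was lower with EphB2-Fc and siRNA over siRNA alone (-0.21, adjusted p = 0.0122). ATP5F1E, which encodes the epsilon subunit of the catalytic part, had 75.0, 58.2 and 70.4 CPM with EphB2-Fc and ephrin-B1 siRNA, against 111.4, 109.8 and 140.3 CPM with EphB2-Fc alone. It had 64.6, 59.1 and 63.5 CPM with ephrin-B1 siRNA alone, against 129.4, 117.5 and 128.5 CPM in Ctrl, so the groups with and without the siRNA did not overlap. Of all genes, 7.65% lay lower without overlap under EphB2-Fc and 8.89% against Ctrl. The log2 fold changes of ATP5F1E were -0.83 (SE 0.11, adjusted p = 0.0161) and -1.003 (SE 0.11, adjusted p = 0.00211). ATP5MG, which encodes subunit g of the membrane part, fell by 0.61 against Ctrl (SE 0.080, adjusted p = 0.0041), with 37.6, 42.25 and 40.05 CPM against 57.9, 60.4 and 64.3 CPM. The median of the 18 genes against Ctrl was -0.078, with 14 of them below 0.

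Among 17 genes of the BCL2 family, which governs the permeability of the outer membrane, MCL1 alone passed without the block. MCL1, an anti-apoptotic member, rose with ephrin-B1 siRNA by 0.44 against Ctrl (SE 0.082, adjusted p = 0.0225) and by 0.43 under EphB2-Fc (SE 0.082, adjusted p = 0.0484). Its levels were 282.0, 347.7 and 313.4 CPM with the siRNA alone against 226.9 to 235.3 CPM in Ctrl. These did not overlap, as for 9.16% of all genes in that direction. With the block 2 of the 17 passed for EphB2-Fc with siRNA over siRNA alone, BID and PMAIP1, both as higher and beside 6.93% of all genes, and none in EphB2 vs Ctrl. With the siRNA, BCL2L11 was also higher and BOK and BMF lower against Ctrl, and BAX and BBC3 were higher under EphB2-Fc in that fit.

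Of 22 genes of mitochondrial protein import, TOMM5 fell (-0.59, SE 0.13, adjusted p = 0.0422) and TOMM20, a receptor of the outer membrane translocase, rose (0.43, SE 0.094, adjusted p = 0.0466) with ephrin-B1 siRNA against Ctrl, and none passed in another comparison without the block. With it TOMM40, the channel of that translocase, was higher with EphB2-Fc, by 0.31 with ephrin-B1 siRNA (adjusted p = 0.000923) and 0.23 without it (adjusted p = 0.00763), and TOMM5 and TOMM20 were the 2 that passed with the siRNA under EphB2-Fc, in the same directions as against Ctrl. TOMM5, a small subunit of that translocase, had 15.5 to 19.9 CPM with the siRNA against 23.6 to 27.9 CPM in Ctrl. Of 14 matrix chaperones and proteases, GRPEL2, a cofactor of the matrix HSP70, rose by 0.30 with ephrin-B1 siRNA against Ctrl (SE 0.064, adjusted p = 0.0385), with 79.0, 75.1 and 74.5 CPM against 60.1 to 63.9 CPM. With the block HSPE1 and GRPEL1 were higher with EphB2-Fc and siRNA over siRNA alone, HSPA9 and GRPEL2 with the siRNA against Ctrl, and HSPA9, GRPEL1 and GRPEL2 with it under EphB2-Fc. None of the 9 genes of mitochondrial calcium uptake and release passed without the block, and with it MCU, the pore of the calcium uniporter, was lower with EphB2-Fc and siRNA over siRNA alone (-0.19, adjusted p = 0.0341). MICU2, a regulator of calcium uptake, had a log2 fold change of -0.19 for EphB2-Fc with siRNA over siRNA alone (adjusted p = 0.586).

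Of 14 genes of mitochondrial DNA and biogenesis, PNPT1, an RNA-degrading exoribonuclease of mitochondria, rose in EphB2 over Ctrl by 0.64 (SE 0.085, adjusted p = 0.0374). It had 75.1, 96.4 and 86.1 CPM in EphB2 libraries against 55.9, 56.1 and 52.9 CPM in Ctrl libraries. With EphB2-Fc and ephrin-B1 siRNA it had 82.8, 87.7 and 79.4 CPM against 61.8, 62.0 and 58.5 CPM with the siRNA alone, a log2 fold change of 0.46 (adjusted p = 0.0966), which passed with the block (adjusted p = 0.000816). The groups did not overlap for PNPT1 in either comparison, as for 6.62% of all genes in EphB2 vs Ctrl and 7.26% with the siRNA. With the block PPRC1, a co-activator, was also higher in both comparisons of EphB2-Fc and TWNK and ESRRA in that with the siRNA, and with the siRNA GABPA was higher and PPRC1 lower, both against Ctrl and under EphB2-Fc.

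The genes whose levels ran most like those of PPIF over the 12 libraries were found by the Pearson correlation of log2(CPM + 1) among 11438 genes with a mean of at least 5 CPM. The 8 highest were SLIT2 (r = 0.97), a secreted guidance cue, NFE2L3 (0.96), a transcription factor, IL6 (0.96), a cytokine, CD82 (0.96), a tetraspanin, AFAP1L1 (0.96), an actin-binding protein, MYOCD (0.95), a co-activator of smooth muscle genes, TRIO (0.95), and SMG1 (0.94), a kinase of nonsense-mediated decay. SMG1 has copies that held 13160 counts beside its own 64320, so its level is uncertain. The 12 libraries fall into 4 groups that share treatments, so these correlations are descriptive. IL6, for example, had 10.8, 8.08 and 8.17 CPM with EphB2-Fc and ephrin-B1 siRNA against 3.45 to 4.47 CPM with the siRNA alone, and 9.04 to 11.7 CPM in EphB2 against 4.64 to 6.09 CPM in Ctrl. The 5 other pore genes had r = 0.69 for VDAC1, 0.56 for SLC25A4, 0.061 for VDAC2, 0.016 for SLC25A5 and -0.19 for VDAC3. Their ranks among the 11438 genes were 428, 983, 4467, 4906 and 6940 in the same order.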

How the data were processed

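The data are RNA-seq of 12 HMC3 libraries, 3 in each of 4 groups taken from the sample labels. The authors quantified paired reads with kallisto (version not given in the sources used here) on Ensembl release 109 cDNA of GRCh38 and deposited 1 table per library. The estimated count values of each transcript were deposited as the authors' kallisto run assigned them, before any normalization, and TPM was deposited as kallisto computed it from those counts and effective lengths, so a short transcript with few counts can hold much of the TPM. Each table lists 188753 transcripts, of which 167067 were named from GENCODE 44, with 95.25 to 95.98% of the counts. The others were not used, and 0 columns belonged to other series. Strand use is not stated, so antisense reads cannot be separated.

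Gene sums of the estimated counts were rounded to whole numbers, and the 21601 genes that reached 10 counts in the 12 libraries together were fitted with edgeR 4.0.16 (TMM, quasi-likelihood test, all 4 groups in 1 fit, no block), with Benjamini-Hochberg adjustment. DESeq2 1.42.0 and limma 3.58.1, run in R 4.3.3, gave alternatives. Python 3.11.15 with pandas 2.3.3 served for the sequence counts.

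Same-numbered libraries share an experiment number in the submitted file names and were taken as pairs. Deviations from the group means correlated at 0.75 to 0.81 between libraries of replicate 1, at 0.78 to 0.81 for replicate 2 and at 0.098 to 0.27 for replicate 3. Biological variation over all genes, as edgeR's common coefficient, came to 0.182, and to 0.0649 in the fit with a block. The study names 3 biological replicates, and where these are separate cultures of 1 line, p-values measure the spread between such cultures.

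The 6 genes, the lists and the motifs were chosen with earlier results of these data known. Named genes are the 6, EFNB1, the 8 genes most correlated with PPIF, and from each list the genes past the threshold in a comparison or else the 2 with the smallest p for EphB2-Fc with siRNA over siRNA alone. One gene that this rule names is not reported here. SLC25A6, CKMT1B and the list and marker genes named for passing with the block alone were named after their values were seen. Rescaling of TPM and the offset with the block were also chosen after the data were seen. Intervals (95%) are from the fit without a block, except where the block is named. Promoter motifs (an NF-kB core and an interferon response element core) were searched on both strands. Leaving out replicates, filters, DESeq2, limma on TPM, a length offset and the most abundant transcript were the alternatives.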

Additional observations from a re-analysis of the deposited data

Results flagged for a closer look

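One result came from a transcript outside the comparisons above. RNA5-8SP6, a 5.8S rRNA pseudogene, took 10.6% of the TPM in the library where it was lowest (ephrin-B1 siRNA replicate 1) and 40.6% where it was highest (EphB2 replicate 2). It was marked because this signal lies in a row that no comparison of the pore genes uses and far above what a count of 0 allows, and it scales the TPM of every other gene in the same library. No gene of the 6 moved in opposite directions with and without ephrin-B1 siRNA in every pair. Groups of 3 libraries were not searched for single libraries that stand apart.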

How the results depend on the processing

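PPIF with EphB2-Fc and ephrin-B1 siRNA over ephrin-B1 siRNA alone, given as a description, was positive in 27 of 27 alternatives. These reuse the libraries in which the rise was seen, so the sign is no separate support. The log2 fold change was 0.68 when only the groups compared were fitted, 0.34 with limma on log2(TPM + 1) as deposited and 0.65 with rescaled TPM. Leaving out replicates gave 0.62 to 0.73. PPIF with ephrin-B1 siRNA against Ctrl was negative in 27 of 27, between -0.42 and -0.060, and did not pass in 17. The causes were not tested. No call turned its direction, and the replicate block, for which the pairing is given with the methods, changed calls of the 6 genes as given with their values and changed no other call of these genes.

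The genes called in EphB2 vs Ctrl, EphB2-Fc with siRNA over siRNA alone, siRNA against Ctrl, siRNA under EphB2-Fc, and the interaction numbered 8, 25, 391, 133 and 0. With the replicate block they numbered 1153, 1496, 2931, 2146 and 1, with the block but without replicate 3 they numbered 186, 201, 854, 399 and 6, and with the block and the length offset 362, 479, 1136, 693 and 1. DESeq2 called 203, 270, 1007, 658 and 2. The first 4 counts were 0, 7, 121 and 21 with the length offset alone, 1, 2, 86 and 0 with only the groups compared, 0, 2, 0 and 2 with limma on TPM, 1, 6, 79 and 13 with rescaled TPM, and 1, 13, 173 and 47 with the most abundant transcript. A filter of at least 1 count gave 13 in EphB2 vs Ctrl and 1 in the interaction, and one of at least 1 CPM in at least 3 libraries gave 44, 593 and 230 in the others apart from the interaction. Leaving out replicates gave 0 to 15, 0 to 27, 0 to 405, 0 to 117 and 0 to 0.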
